A study of Ipomoea batatas with 28 samples.

Results

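Pencil roots of sweet potato (Ipomoea batatas) are roots of medium thickness, between the thin fibrous roots and the swollen storage roots. The comparison described here asked what sets their transcriptome apart from a plain halfway state between fibrous and storage roots. Its subject is the 8 pencil libraries of the 28 in the series, chosen by the labels alone: 4 of stage S10 (3.5 mm in diameter) and 4 of stage S12 (5 mm). They were set against 8 fibrous libraries (S4 at 1.5 mm and S8 at 2 mm) and 12 storage libraries (S14 at 10 mm, S16 at 15 mm and S20 at 25 mm). All 7 stages were wild type and had 4 biological replicates, and RNA was taken from the middle section of the root. The labels name no cultivar, plant age or harvest date, and whether a library held 1 root or several is not stated.

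As background, a storage root forms when a young root thickens through its cambium, a ring of dividing cells, and fills with parenchyma cells that store starch. Roots in which the central cylinder turns woody early stay thin. Pencil roots have thickened in part, and the name covers roots that may go on to swell as well as roots that stop there. The labels do not tell these fates apart.

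Values are TPM (a length-corrected abundance that sums to the same total in all libraries) as deposited, a share of each library and not an amount per cell. In such bulk samples, fewer cells of a type and less RNA per cell cannot be told apart. TPM keeps no read depth, and error was judged from replicate spread alone. The table names its rows by numbers, and 0 of its IDs matched the gene table used here, so no ID has a gene name, a sequence or a known function. Rows are called IDs, since 17095 of 49007 G numbers are split over several rows, so that a row can be part of a gene. Marker genes could not be looked up to check the stage labels.

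For each ID the midpoint was the average of the fibrous mean and the storage mean, on the scale log2(TPM + 1), with every stage of a class weighted alike. The difference of the pencil mean from this midpoint is called the departure. It would be 0 for an ID that stood exactly halfway. The 75757 IDs with 1 TPM or more in at least 4 libraries were tested, of which 2696 reached 1 TPM in exactly 4 libraries. A further 3082 reached it in 3 and were left out.

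The place of each library on the straight path from the fibrous to the storage transcriptome was measured first, with 0% at the fibrous mean and 100% at the storage mean. The pencil libraries, which did not define the path, lay at 45.2% ± 17.6 (SD, n = 8), from 22.1% to 74.3%. The S10 libraries lay at 31.4% ± 8.38 (SD, n = 4), from 22.1% to 42.4%, and the S12 libraries at 59.1% ± 11.9 (SD, n = 4), from 45.6% to 74.3%. The pencil stages did not overlap and differed by 27.8 percentage points (two-sided exact permutation p = 0.0286, the smallest that 4 against 4 libraries allow). The pencil class was thus made of a stage short of the midpoint and a stage past it by its mean, and by root diameter on a log2 scale its mean place was 40.2%.

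**Figure D1:**
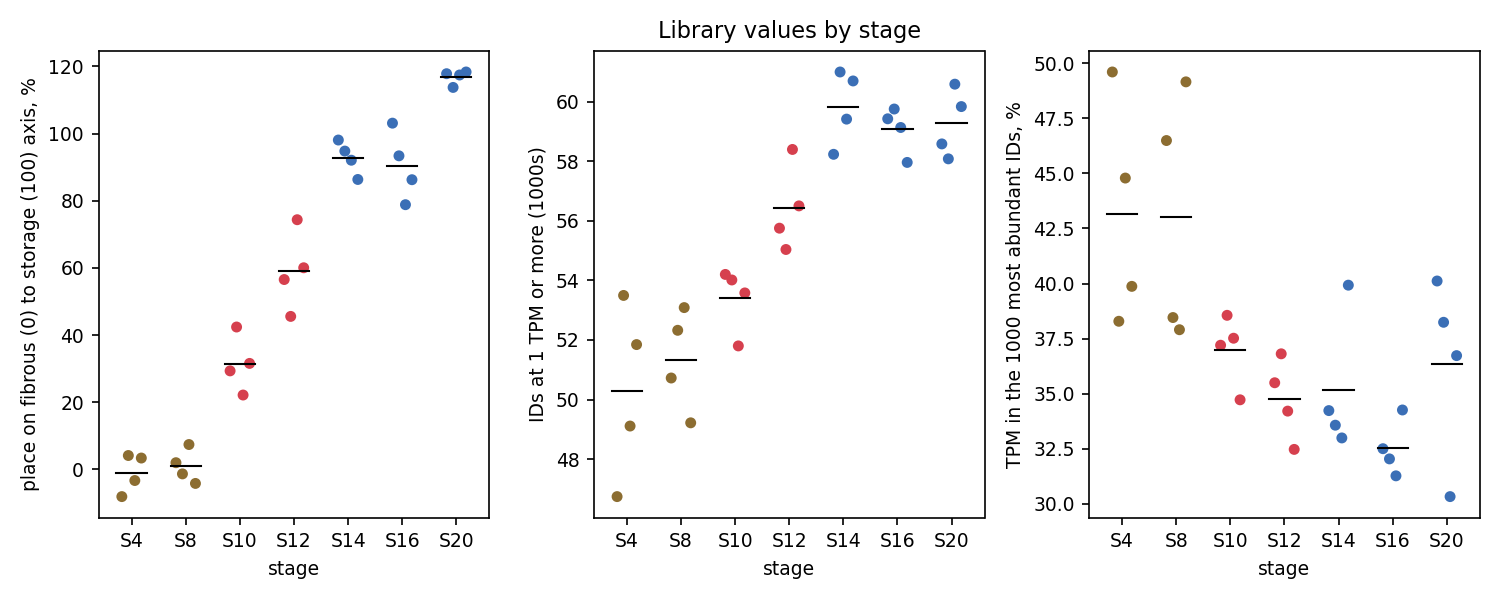
Each point is 1 library and each bar the mean of the 4 libraries of a stage (brown fibrous, red pencil, blue storage). The panels show the place on the fibrous to storage path in percent, the count of IDs with at least 1 TPM in units of 1000, and the percentage of TPM in the 1000 most abundant IDs; the S10 libraries lie from 22.1% to 42.4% of the path and the S12 libraries from 45.6% to 74.3%.

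Of the whole-library values, the mean count of detected IDs in pencil roots was close to the midpoint, while the mean share of TPM in the most abundant IDs lay under it. The differences of these values from the midpoint were not tested. Pencil libraries held 54908 ± 2005 IDs at 1 TPM or more (SD, n = 8), against a midpoint of 55102. The stage means lay on either side of it, at 53396.5 for S10 and 56418.8 for S12. Pencil libraries differed from fibrous libraries by 4090.5 IDs (exact permutation adjusted p = 0.00256) and from storage libraries by -4480 (exact permutation adjusted p = 0.000191). The 1000 most abundant IDs of a library took 35.9% ± 2.01 of the TPM in pencil roots (SD, n = 8), against a midpoint of 38.9%, a difference of -3.01 percentage points. This was 7.20 points under the fibrous mean (exact permutation adjusted p = 0.00187) and 1.19 points over the storage mean, a difference that did not pass (exact permutation adjusted p = 0.373). The MSTRG rows, those not numbered as G and TU, took 10.5% ± 0.264 of the TPM in pencil libraries (SD, n = 8), and the midpoint was also 10.5%. That share was above the storage mean by 0.458 points (exact permutation adjusted p = 0.0437), and the call was lost when any 1 of 12 libraries was left out (S10 replicates 1, 3 and 5, S12 replicates 4 and 5, S14 replicate 4, S16 replicates 3 and 4 and the 4 S20 libraries), with an exact permutation adjusted p of up to 0.0833. By stage the mean MSTRG share was 10.59% at S10 and 10.44% at S12. It was 10.45% at S14, 10.16% at S16 and 9.56% at S20, so the early storage stage S14 was near the pencil stages and S20 was lowest. The p-values were adjusted over the 6 comparisons of pencil roots with fibrous or storage roots.

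How many IDs departed from the midpoint depended on the size of difference required. Against the midpoint 1801 IDs were higher in pencil roots and 853 were lower (limma, Benjamini-Hochberg adjusted p under 0.05 and a log2 difference of at least 1), which is 2.38% and 1.13% of the IDs tested, or 3.50% together. With no threshold on the size, 8664 IDs were higher (11.4%) and 7210 lower (9.52%) at the same adjusted p. An unadjusted p under 0.05 was found for 25603 IDs. The typical size of the departure, a root mean square with the replicate error removed, was 0.40 on the log2 scale, against 1.13 for storage minus fibrous roots. The median departure of all IDs was 0.01, with quartiles of -0.27 and 0.29. In 1225 of the 1801 higher and 667 of the 853 lower IDs, each of the 8 pencil libraries lay on that side of the midpoint. The same libraries and midpoint chose these IDs, so the 2 counts describe the choice and are no further evidence for it.

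The split by direction depended on the scale. It was 1433 higher and 1057 lower after median-of-ratios scaling, 57.6% higher in place of 67.9%, and 1628 and 949 after quantile normalization. The count of IDs was 3187 and 3049 with a pseudocount of 0.1 and 651 and 110 with a pseudocount of 5.

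An ID can depart from the midpoint and still lie between the classes, so the place of the pencil mean was tabulated. Of the 1801 higher IDs, 1536 (85.3%) had a pencil mean above both the fibrous and the storage mean, 188 lay between the classes with fibrous roots the higher, and 77 between them with storage roots the higher. Of the 853 lower IDs, 676 (79.2%) lay below both means, 148 lay between with storage roots the higher, and 29 between with fibrous roots the higher. Among all 75757 IDs, 23.5% had a pencil mean above both and 17.7% below both. A departure of at least 1 places the pencil mean outside both classes whenever the fibrous and storage means differ little. They differed by less than 1 in 825 of the 1801 and in 324 of the 853. The shares among the called IDs thus follow in part from the call. They cannot be read against the shares of all IDs, which had no size threshold. The margin by which the 1536 IDs exceeded the nearer class had a median of 0.86 on the log2 scale and was at least 1 in 552 of them. For the 676 IDs the median margin was 0.67, and it was at least 1 in 144.

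A stricter test then asked which IDs had a pencil mean above, or below, the means of both classes. It required pencil roots to differ from fibrous and from storage roots in the same direction, each by at least 1 on the log2 scale, and took the larger of both limma p-values, adjusted over all IDs. Both differences share the pencil libraries. By this rule 216 IDs were above both classes (0.285% of those tested) and 39 were below both (0.0515%). The split between the directions moved with the scaling, from 84.7% above in the TPM as deposited to 63.1% after median-of-ratios scaling (171 above, 100 below) and 74.2% after quantile normalization (193 and 67). Under all 3 scalings 130 IDs were above and 24 below. With a pseudocount of 0.1 the counts were 163 above and 99 below, and with a pseudocount of 5 they were 122 and 1. The count below both was 24 without S10 replicate 3, 22 without S10 replicate 5, 25 without S12 replicate 1, 21 without S12 replicate 5 and 19 without S4 replicate 2.

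**Figure D2:**
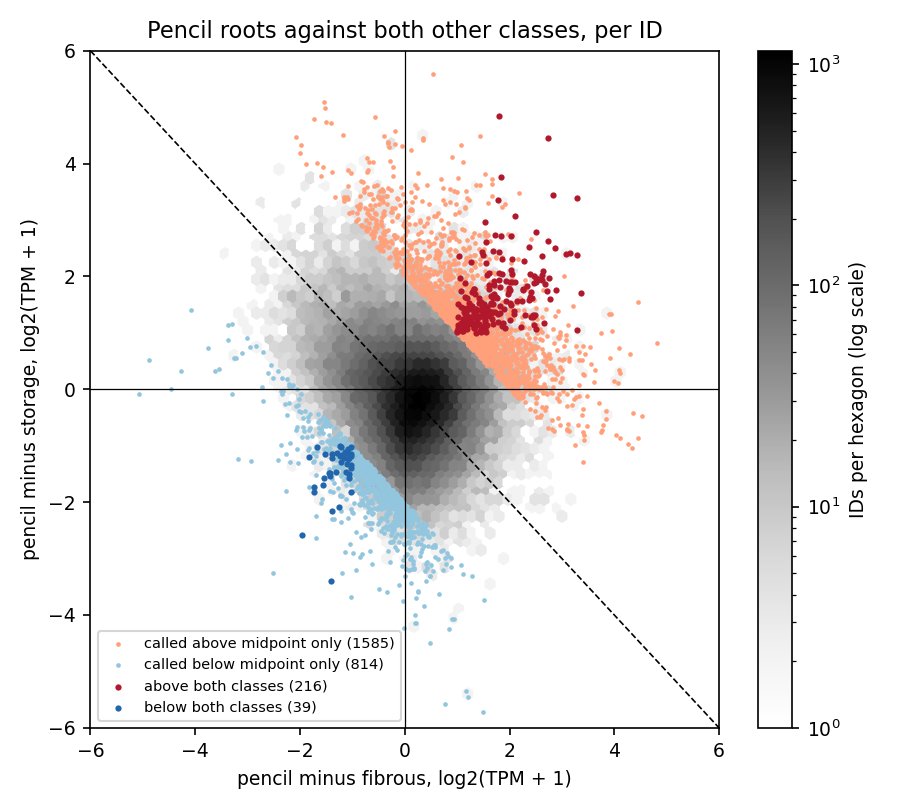
Each ID is placed by its pencil minus fibrous difference (x) and its pencil minus storage difference (y), in log2(TPM + 1); grey hexagons count all IDs tested on a log scale, and the dashed line is where the pencil mean equals the midpoint. The 216 IDs above both classes stand in the upper right corner and the 39 below both in the lower left, while the other IDs called against the midpoint reach into the corners where pencil roots lie between the classes.

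The 216 IDs above both classes had a median departure of 1.53, with a range from 1.01 to 3.60. Their median mean level was 17.9 TPM in pencil roots, 5.03 TPM in fibrous roots and 5.65 TPM in storage roots. The highest reached a mean of 1679 TPM in pencil roots. Summed, they took 1.48% of the TPM in pencil roots, 0.393% in fibrous and 0.496% in storage roots. Of the 216, 41 were MSTRG rows (19.0%, against 24.6% of the IDs tested). The 39 IDs below both classes were lower in level, with median means of 2.36 TPM in pencil, 7.41 TPM in fibrous and 7.99 TPM in storage roots. Their median departure was -1.28. These levels describe the choice of the IDs and are no further evidence for it.

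Most of these IDs would have passed the filter on low values without the pencil libraries. Of the 216, 196 reached 1 TPM in at least 4 libraries outside the pencil roots, against 73004 of all 75757 IDs tested. The rest of the 216 entered the test only through the pencil libraries, where they are high. In no library outside the pencil roots was 1 TPM reached by 2 of the 216, against 30 of all IDs tested. All 39 of the lower set reached it outside the pencil roots. No ID in the table had 1 TPM or more in all 8 pencil libraries and less in all other 20.

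Complete separation of libraries was rarer still. The 8 pencil libraries all lay above the other 20 for 53 IDs (0.0700% of those tested) and all below them for 11 IDs (0.0145%). Of the 216 IDs above both classes 26 were separated in this way, and of the 39 below both 4 were.

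G19658_TU32157 had the largest departure among IDs above both classes that held a mean of at least 10 TPM in pencil roots without overlap. Its lowest, median and highest pencil libraries held 30.2, 64.6 and 83.2 TPM. The fibrous libraries held 1.94, 4.68 and 23.9 TPM and the storage libraries 0.22, 5.75 and 17.3 TPM. All pencil libraries were above all others, and the nearest was S4 replicate 5, the highest fibrous library. The mean was 61.5 ± 19.99 TPM in pencil roots (SD, n = 8), 6.61 ± 7.11 in fibrous (SD, n = 8) and 7.28 ± 6.48 in storage roots (SD, n = 12), and the departure was 3.34 (SE 0.32, limma adjusted p = 1.52e-06). Pencil roots exceeded fibrous roots by 3.29 (SE 0.38) and storage roots by 3.39 (SE 0.34).

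G41542_TU67919 had a similar course. Its pencil libraries held 40.9, 96.7 and 117 TPM (lowest, median and highest), its fibrous libraries 4.47, 9.21 and 39.8 TPM, and its storage libraries 1.29, 6.41 and 23.2 TPM. The lowest pencil library, S10 replicate 5 at 40.9 TPM, stood just above S4 replicate 5 at 39.8 TPM, so the separation rested on a narrow gap there. The departure was 3.14 (SE 0.31, limma adjusted p = 1.52e-06). S10 replicate 5 and S12 replicate 1 were the lowest pencil libraries for this ID and for G19658_TU32157, and S4 replicate 5 was the highest fibrous library for both. The stage means of G41542_TU67919 were 17.8 and 8.63 TPM in the fibrous stages S4 and S8, 89.6 TPM at S10 and 82.9 TPM at S12, and then 14.9, 12.6 and 1.58 TPM in the storage stages in order of diameter.

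G4020_TU6625 had the largest departure downward among IDs below both classes with a mean of at least 10 TPM in both other classes. Its pencil libraries held 3.53, 5.70 and 11.5 TPM, its fibrous libraries 13.5, 18.3 and 47.2 TPM and its storage libraries 11.8, 20.1 and 58.4 TPM (lowest, median and highest). The highest pencil library, S10 replicate 3, stood just under the lowest storage library, S14 replicate 5. The departure was -1.63 (SE 0.24, limma adjusted p = 7.15e-05). Its G number has 3 rows, whose sum was 10.8 ± 2.89 TPM in pencil roots (SD, n = 8), 36.3 ± 14.8 in fibrous (SD, n = 8) and 37.8 ± 14.8 in storage roots (SD, n = 12), so the summed rows were also lowest in pencil roots.

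G43973_TU71336 was next downward, and its libraries overlapped. Its pencil libraries held 3.91, 5.17 and 7.20 TPM, its fibrous libraries 12.1, 20.5 and 46.8 TPM and its storage libraries 6.37, 12.2 and 24.9 TPM. The overlap was with storage roots, where S16 replicate 2 held 6.37 TPM. The departure was -1.52 (SE 0.21, limma adjusted p = 3.32e-05). S16 replicate 3 held 24.5 TPM, apart from the other S16 libraries. In none of the 4 named IDs did S10 and S12 differ past the threshold (limma adjusted p from 0.869 to 0.978), with S12 minus S10 between -0.23 and 0.08 and an SE of up to 0.53. These 4 were named by a rule for the largest departures, so their size is a property of the rule.

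**Figure D3:**
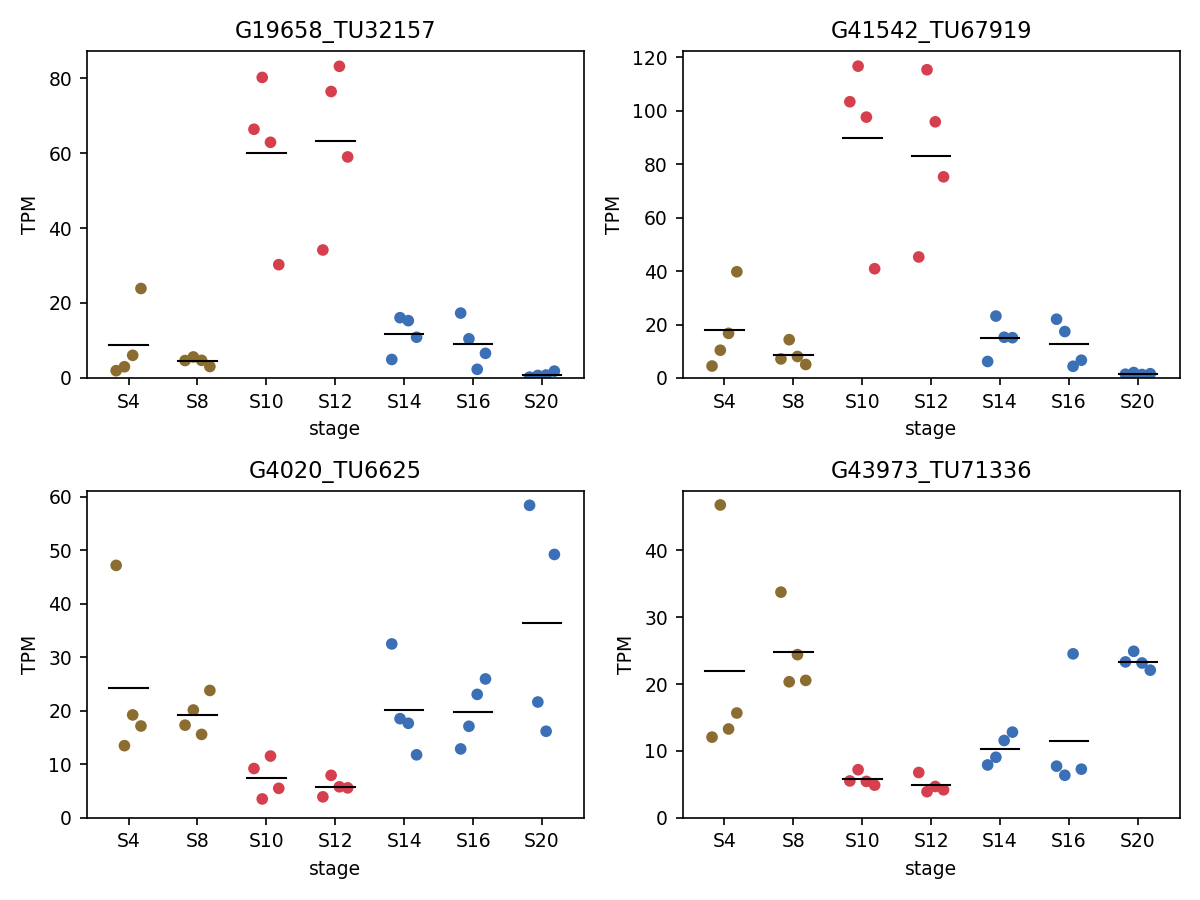
TPM of the 4 named IDs in every library, by stage (brown fibrous, red pencil, blue storage; 4 points per stage, with the bar at the mean). The upper IDs are high at S10 and S12 and lowest at S20, with S20 means of 0.875 and 1.58 TPM, and the lower IDs are lowest at S10 and S12.

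The IDs above both classes had their highest medians at S10 and S12, intermediate medians at S14 and S16 and their lowest at S20. Relative to the midpoint, the median of the 216 IDs was 0.01 and -0.14 in the fibrous stages, S4 and S8. It was 1.41 at S10 and 1.74 at S12, and then 0.67, 0.27 and -0.73 in S14, S16 and S20 roots. S12 was the highest stage for 166 of them, S10 for 47 and S14 for 3. In 204 of 216 both pencil stages exceeded every other stage mean. The pencil mean exceeded every other stage mean by at least 1 in 71 of the 216. By library, the median lay between 1.40 and 1.83 in the 8 pencil libraries, between -0.51 and 0.23 in the 8 fibrous libraries and between -0.97 and 0.86 in the 12 storage libraries. The IDs were chosen by their pencil, fibrous and storage means, so these profiles describe the choice.

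The IDs below both classes formed a shallower trough on the scale log2(TPM + 1), which understates differences of low IDs such as these. Their median was 0.03 and -0.10 in S4 and S8 roots, -1.32 at S10 and -1.25 at S12, and -0.24, -0.14 and 0.55 in the storage stages by diameter. S10 was the lowest stage for 21 of the 39 and S12 for 18. The pencil mean lay below every other stage mean by at least 1 in 11 of the 39. By library, the median lay between -1.56 and -0.99 in pencil roots, between -0.32 and 0.63 in fibrous roots and between -0.51 and 0.80 in storage roots.

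**Figure D4:**
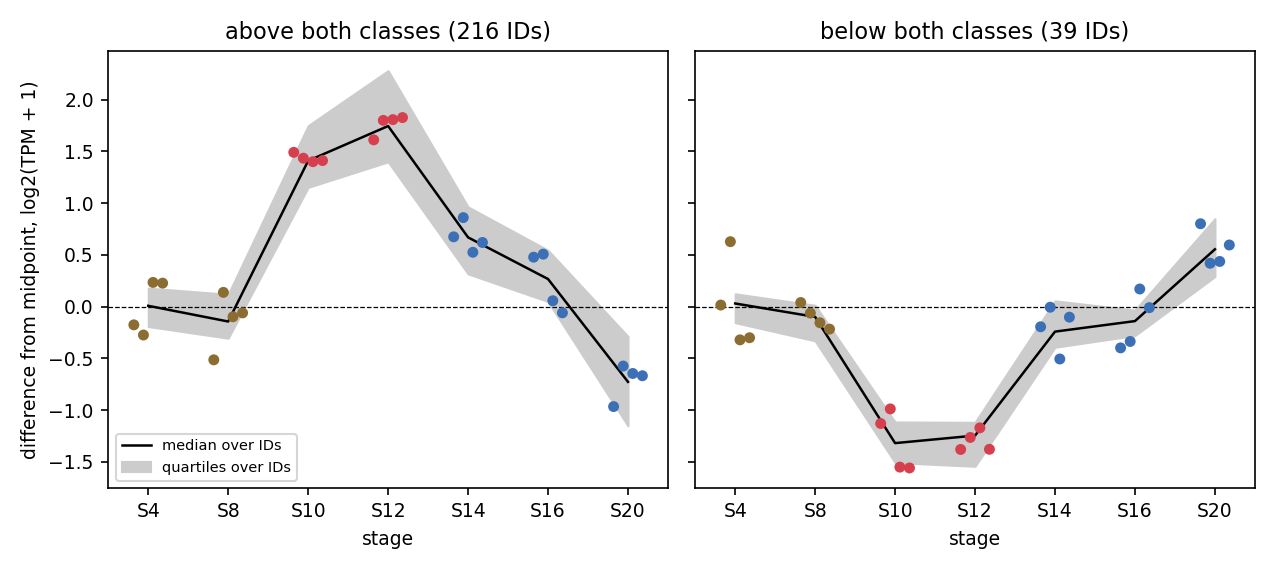
Difference from the midpoint in log2(TPM + 1) by stage for the 216 IDs above both classes (left) and the 39 below both (right); the line is the median over IDs, the band its quartiles, and each point the median of 1 library (brown fibrous, red pencil, blue storage). The left profile is highest at S12 (1.74) and passes below 0 at S20 (-0.73), and the right profile is lowest at S10 (-1.32) and above 0 at S20 (0.55).

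The counts were lower when the thickest roots, S20, were left out of the storage mean, as given below. S20 was set beside the mean of S14 and S16. All 3 stages enter the storage mean that chose the IDs, so a low S20 level helps an ID to be called higher and a high one helps it to be called lower. The following values are therefore a description of the chosen IDs and no test of them. Of the 1801 IDs higher than the midpoint in pencil roots, 734 (40.8%) passed the limma thresholds as lower at S20 than in the earlier storage roots and 1 as higher, where 3.73% of all IDs tested were lower and 4.14% higher. Of the 853 lower IDs, 345 (40.4%) were higher at S20 and 1 was lower. The median of S20 minus earlier storage was -1.05 on the log2 scale over the 1801 IDs, 0.92 over the 853 and -0.03 over all IDs tested.

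Of the 216 IDs above both classes, 117 (54.2%) were lower at S20 and 0 higher, and of the 39 below both 13 (33.3%) were higher and 0 lower, which the choice of the IDs favours in the same way. G19658_TU32157 had stage means of 0.875 ± 0.676 TPM in S20 roots, 9.16 ± 6.37 in S16 roots and 11.8 ± 5.12 in S14 roots (SD, n = 4 each), with a log2 difference at S20 of -2.49 (SE 0.46). The same difference was -2.33 (SE 0.45) for G41542_TU67919. It was 1.15 (SE 0.30) for G43973_TU71336 and 0.72 (SE 0.35) for G4020_TU6625.

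The counts were therefore recomputed with S20 left out of the storage mean. Against the midpoint of fibrous and early storage roots, 1092 IDs were higher and 491 lower in pencil roots, and 52 were above both classes and 10 below both. The storage mean then rested on fewer libraries, those of S14 and S16. No other stage was left out in this way, so whether the fall is particular to S20 was not tested. All 52 were among the 216 and made up 24.1% of them, and all 10 were among the 39 (25.6%). Of the 1092 higher IDs, 1067 had been called with S20 included, which was 97.7% of the 1092 and 59.2% of the 1801. Of the 491 lower IDs, 431 had been called before (87.8% and 50.5%). In these sets, chosen by S14 and S16 but not by S20, the median of earlier storage minus S20 was 0.85 on the log2 scale over the 1092 higher IDs and -0.37 over the 491 lower IDs. Against S14 alone, the pencil mean was higher by at least 1 in 96 of the 216 IDs, against S16 in 157, and against S20 in 215.

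Fewer IDs passed in the other contrasts inside a class, whose stages also enter the means that chose the IDs. S12 exceeded S10 in 33 of the 1801 higher IDs (1.83%) and was lower in 1 (limma), against 0.589% of all IDs tested that were higher. It was higher in 3 of the 216 (1.39%) and lower in 0. The median of S12 minus S10 was 0.32 over the 216 IDs and 0.11 over all IDs tested, and it was positive in 168 of the 216, in 582 of the 853 lower IDs and in 46957 of all 75757. S16 was lower than S14 in 2 of the 216 (0.926%) and 0 of the 39, against 0.0884% of all IDs, and higher in 0 of both sets, against 0.0449%. Between S4 and S8, where 1 ID was called in the whole table (0.00132%), none of the 2654 departing IDs was called.

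Each pencil stage was also set against the midpoint by itself. S10 departed in 3312 IDs (4.37% of those tested), 1618 higher and 1694 lower, and S12 in 2831 IDs (3.74%), 2109 higher and 722 lower (limma). Both stage contrasts share the fibrous and storage libraries, and the S10 count was near evenly split by direction while the S12 count leaned to the higher side in the TPM as deposited, where alone this split was computed. Of the higher S10 IDs 316 lay between the classes with fibrous roots the higher, and of the lower S10 IDs 347 lay between with storage roots the higher. At S12 these numbers were 46 and 51. The opposite kinds were more frequent at S12. Of its higher IDs 158 lay between the classes with storage roots the higher, and of its lower IDs 104 with fibrous roots the higher. At S10 the numbers of these opposite kinds were 12 and 8. The stages stood on either side of the midpoint by their mean places on the path, 31.4% for S10 and 59.1% for S12. How much this added to the counts was not tested. The S10 count was 2187 without S10 replicate 3, the library whose removal moved it most downward, and 4298 without S10 replicate 2.

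The share of IDs called differed by level, on a measure that is not neutral to level. The level is a mean that includes the pencil libraries, and the pseudocount makes a log2 difference of 1 harder to reach at low TPM. This split was computed for the TPM as deposited alone. Of the 1343 IDs with a mean of 100 TPM or more over all libraries, 169 (12.6%) were higher than the midpoint and 15 (1.12%) lower. At 10 to 100 TPM 4.96% were higher and 1.46% lower, at 1 to 10 TPM 1.78% and 1.36%, and under 1 TPM 0.180% and 0. With the level taken from the 20 libraries outside the pencil roots, 10.2% of 1280 IDs at 100 TPM or more were higher and 1.33% lower, and at 1 to 10 TPM 1.87% and 1.15%. The abundant higher IDs were mostly higher in fibrous than in storage roots by their means: in 123 of 169 the fibrous mean exceeded the storage mean, against 610 of the 1343. A pencil mean above both classes was found in 102 of the 169. Together they took 7.53% of the TPM in pencil roots, 6.02% in fibrous roots and 2.87% in storage roots, and 122 of the 169 were lower at S20 than at S14 and S16 while 0 were higher, against 318 lower and 38 higher of the 1343. The 1801 higher IDs as a whole took 12.5% of the TPM in pencil, 8.64% in fibrous and 5.05% in storage roots. Both sets were chosen by their pencil, fibrous and storage means, S20 included. These shares and the S20 counts therefore describe the choice and are no further evidence for it. The 16 abundant IDs among the 216 had a median departure of 2.01.

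In most G numbers with a departing ID and several tested rows, only a single row departed. Where more than 1 row departed, the directions were seldom opposite. Of 1914 G numbers with a departing ID, 695 had more than 1 tested row. In 165 of these more than 1 row departed in the same direction, in 2 rows departed in opposite directions, and in 528 a single row departed. When TPM was summed over the rows of a G number, 1544 features were higher and 779 lower than the midpoint, 202 were above both classes and 46 below both. The G numbers of the 216 IDs were also near each other in the numbering. Of the 175 of them with a G number, 25 (14.3%) had another ID above both classes within 5 G numbers, against 3.07% of all tested IDs with a G number, and 4 of 35 below both (11.4%) had one of their own kind, against 0.684%. Whether the numbering follows the genome was not given in the sources used here, and neighbouring IDs may be near-identical copies between which reads cannot be divided with certainty.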

How the data were processed

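The authors deposited 1 table of TPM with 99697 rows and 28 columns, each column summing to the same total. TopHat2 2.0.0 and RSEM 1.3.1 are named, per the submitters' processing notes; the build, the annotation and what each tool did are not given in the sources used here. Per the labels' protocols, an RNeasy kit (Qiagen) served for RNA and a TruSeq kit (Illumina) for libraries. Depth is unknown, so no counting interval was computed.

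Values were analysed as log2(TPM + 1), and fold changes are on that scale, which understates those of low IDs. limma 3.58.1 (R 4.3.3, trended prior) was fitted to 7 stage means over all 28 libraries, and p-values were adjusted over all 75757 IDs. Library values were compared by exact permutation tests of the difference of means (Python 3.11.15, NumPy 2.4.6). The steps were tested on simulated data. Of IDs without gene names, the 2 largest departures in each direction were named, among IDs outside both classes with at least 10 TPM and, where available, no overlap. The contrast, the lists and the rules were chosen with earlier results of these data known. No 2 columns were identical.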

Additional observations from a re-analysis of the deposited data

Results flagged for a closer look

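In 70 groups of 4 libraries (7 stages, 10 measures), 2 values stood far from the other 3, as judged by the gap to the nearest value against the group's range (Dixon's test). Chance alone flags about 1 in 20 groups, or 3.5 here. The median difference from the midpoint of the IDs above both classes was 1.61 in S12 replicate 1, below the other S12 libraries (1.80 to 1.83). G43973_TU71336 held 24.5 TPM in S16 replicate 3, above the other S16 libraries.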

How the results depend on the processing

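The 4 named IDs kept their direction and their limma call under each alternative run for them and without each library. Counts moved more. With a pseudocount of 0.1 there were 3187 IDs above and 3049 below the midpoint, 163 above both classes, 99 below both, 5722 departing at S10 and 4264 at S12. With a pseudocount of 5 there were 651, 110, 122, 1, 949 and 1020 in that order. With no fold threshold there were 8664, 7210, 463, 115, 10222 and 8119 in that order. Without S20 there were 1092, 491, 52 and 10. IDs below both classes numbered 100 with median-of-ratios scaling, 67 with quantile normalization and 70 with array weights, and 130 IDs above and 24 below both were called under all 3 scalings. The cause of these shifts was not tested.

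Without single libraries the counts ran from 1639 to 1925 above and 710 to 1024 below the midpoint, 145 to 230 above both, 19 to 50 below both, 2187 to 4298 at S10 and 2034 to 3014 at S12. The shares that moved at S20 ran from 36.6% to 42.9% and from 36.5% to 42.0%. Detected IDs differed by 3508 to 4535 from fibrous and -4977 to -4036 from storage roots, the share of the 1000 most abundant IDs by -7.94 to -6.27 and 0.794 to 1.68 points, and the MSTRG share by -0.577 to -0.445 and 0.372 to 0.529 points. With the 100 most abundant IDs the difference from storage roots was -1.87 points, opposite in sign (exact permutation adjusted p = 0.289).

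Pairing by replicate number was not visible. Deviations of libraries with the same number in the sample descriptions correlated over 0.1 in 8 of 66 pairs. Their median correlation was -0.005, against -0.003 for other numbers, and 6 of 28 libraries correlated best with their own number. With the numbers in the sample titles these counts were 10 of 84 pairs and 9 of 28 libraries. Whether libraries shared a plant or harvest was not tested. With the description numbers as a block there were 1881 above, 856 below, 177 above both, 31 below both, 3226 at S10 and 2627 at S12. Against a straight line in log2 diameter, in place of the midpoint, 1846 were higher and 684 lower, and 1777 of 1801 higher IDs exceeded the arithmetic midpoint of mean TPM. Unknown depth limits all low IDs. The S20 shares, the level outside the pencil roots, the arithmetic midpoint and the count under all 3 scalings were added after the data were seen.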
